A study of Mus musculus with 2 samples.

Results

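The nuclear-encoded subunits of the oxidative phosphorylation complexes were followed through the immune cells of the mouse liver. They were taken by name: Ndufa, Ndufb, Ndufc, Ndufs and Ndufv genes for complex I, Sdha to Sdhd for complex II, Uqcr genes for complex III, Cox4 to Cox8 genes for complex IV and Atp5 genes for complex V. Ndufa4 and pseudogene copies were left out. Of 31053 genes in the count matrices 83 entries (82 symbols) matched, and 73 of them reached the level limit of 20 CPM in at least 1 library. These 73 are the members described below: 35 of complex I, 4 of complex II, 8 of complex III, 11 of complex IV and 15 of complex V. The measurements were single-cell 3′ RNA counts of C57BL/6 liver mononuclear cells sorted for CD45 and CD11b, a leukocyte antigen and an integrin of myeloid and NK cells. There was 1 library from uninjured control mice (Ctrl) and 1 from mice whose liver fibrosis had resolved (RES). Each pooled the cells of 5 mice, and the labels used here give neither the agent that caused the fibrosis nor the age of the mice. Since each condition is a single library, no difference was tested. The values compare these 2 libraries, and the 95% intervals reflect counting alone. Levels are in CPM, the UMIs of a gene (or set of genes) in every 1000000 UMIs of the same cells, and differences are log2 ratios.

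Oxidative phosphorylation takes place in the inner mitochondrial membrane. Complexes I to IV pass electrons from NADH and succinate to oxygen, complexes I, III and IV pump protons while doing so, and complex V, the ATP synthase, lets the protons flow back and makes ATP. Most subunits are encoded in the nucleus and imported, and a small group is encoded by mitochondrial DNA. Complex I is built from core subunits, which carry the electron and proton path, and accessory subunits around them. Macrophages and monocytes are known to vary in how much they rely on respiration and on glycolysis.

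The Ctrl library held 3691 barcodes with 20379164 UMIs and the RES library 4278 barcodes with 34119806 UMIs. After filtering, 3337 Ctrl and 4011 RES cells were kept, with medians of 4507 and 6360 UMIs per cell. Ptprc, which encodes CD45, stood at 2052 and 1546 CPM in Ctrl and RES, and Itgam, which encodes CD11b, at 208 and 399.7. Cells were put into classes by summed marker UMIs: NK cells (1477 Ctrl and 1435 RES cells), B cells (58 and 63), conventional dendritic cells (cDC, 214 and 171), classical monocytes (426 and 635), nonclassical monocytes (309 and 540) and macrophages (117 and 668). Another 713 Ctrl and 489 RES cells met no class or more than 1. Macrophages were cells past the threshold of the C1q list (C1qa, C1qb, C1qc, Ms4a7, Trem2, Mrc1) or that of the summed Arg1 and Spp1 UMIs. Either gene alone could carry the Arg1 Spp1 sum. C1q-alone cells passed the C1q threshold only and could hold Arg1 or Spp1 UMIs below theirs. The balance of those kinds differed between the libraries. Cells past the Arg1 Spp1 threshold (Arg1 Spp1 cells) were 27 of 117 Ctrl macrophages (14.7% of their UMIs) and 584 of 668 RES macrophages (89.3%). Of the genes that mark resident Kupffer cells, Clec4f and Timd4 were at or near 0. Clec4f was at 0 in Ctrl macrophages and at 0.367 CPM in RES macrophages, and Timd4 at 1.17 and 0. The Kupffer list as a whole was not at 0. Its 7 genes summed to 119 CPM in Ctrl macrophages and 28.5 in RES macrophages, mostly from genes other than these. Alb, a hepatocyte gene, was at 25.7 and 24.9 CPM in the Ctrl and RES macrophages.

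The libraries shared barcodes. Of the deposited barcodes 56 occurred in both, 49 of them among kept cells, and 48 of the 49 were deeper in RES. The median depth of the shared barcodes was 627 UMIs in Ctrl and 29324 in RES, and 47 had less than 10% of the RES depth in Ctrl. They fell most heavily on the Ctrl Arg1 Spp1 macrophages, where 16 of 27 cells carried a shared barcode, and 17 of the 27 had under 1000 UMIs. Without shared barcodes 11 of those Ctrl cells were left, with a median of 8211 UMIs, against 557 RES cells. The values of single members in this class are given with and without them.

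Across all kept cells the members together gave 19141 CPM (19079 to 19203) in Ctrl and 20214 (20165 to 20263) in RES. Complexes IV and V held the largest shares, complex II the smallest. Complex I stood at 5316 CPM in Ctrl and 5620.0 in RES, complex II at 321 and 357, complex III at 2107 and 2211, complex IV at 5659 and 5848, and complex V at 5738 and 6177. Because a 3′ UMI counts a transcript once whatever its length, these levels were not corrected for length. Other differences in how well genes are counted were not corrected either, so ranks between genes are approximate. Exons of 5 members overlap another gene on the same strand, and 4 members have an annotated pseudogene copy. Cox4i1, a subunit of cytochrome c oxidase that takes part in its regulation, was the most abundant in Ctrl at 959 CPM, with 947 in RES. Cox8a, a small subunit of the same complex, was at 885 and 871 and Cox7c at 660.1 and 702. In complex V the highest were Atp5e, the epsilon subunit, with 875 and 1002 CPM, Atp5l with 691 and 740.5, and Atp5h with 639 and 645. Uqcrh, the hinge protein of complex III, was at 778 and 704, Uqcrq, a small subunit, at 299 and 381, and Uqcrb at 239.8 and 276. Complex I members ran from 35.5 to 349.7 CPM in Ctrl, led by Ndufa13 (350 and 327), Ndufa2 (335 and 359) and Ndufa6 (318 and 325). In complex II, which is also an enzyme of the citric acid cycle, the iron-sulfur subunit Sdhb was at 124 and 138 and the flavoprotein Sdha at 85.8 and 89.2.

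The lowest members over the limit were Ndufs1, the largest core subunit of complex I, at 35.5 and 35.7 CPM, Ndufv1 at 38.1 and 41.7 and Ndufa9 at 49.9 and 48.6. The 10 entries below the limit were Cox7b2, Cox8b, Cox8c and a second Atp5o identifier (all at 0), together with Cox4i2, Ndufa4l2, Atp5s, Cox7a1, Cox6a2 and Cox6b2. The highest of those were Cox6b2 with 10.8 and 8.83 CPM and Cox6a2 with 9.68 and 7.92.

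The summed level was 1.06-fold that of Ctrl in RES, a log2 ratio of 0.079 (0.073 to 0.085). The complexes lay close to each other, with log2 ratios of 0.080 for complex I, 0.16 for complex II, 0.070 for complex III, 0.047 for complex IV and 0.11 for complex V. The libraries differ in their mix of classes, and with the RES mix set to that of Ctrl the sum gave 0.051. The median member had a log2 ratio of 0.090, and 54 of 73 were above 0. Over the 6231 genes that reached the same limit of 20 CPM the median was 0.0027 and 50.3% were above 0. At least 1.2-fold higher in RES were 8 members, where 18.1% of all genes were: Atp5g3, Ndufa1, Ndufc1, Atp5k, Ndufb2, Uqcr11, Uqcrq and Ndufv3. That count was 1 with the RES class mix set to that of Ctrl (10.4% of genes), 2 with every cell thinned to 1000 UMIs (20.3%) and 5 with each cell weighted equally (16.6%). At least 1.2-fold lower was 0 of 73, where 16.4% of all genes were. No member reached 1.5-fold in either direction, beside 6.03% of genes higher and 3.72% lower. The members were thus shifted slightly upward in RES, and a smaller share of them than of genes in general passed either fold. The shares of all genes, here and in the classes below, are not matched for level. At 100 CPM or more in all cells were 58 of the 73 members and 1691 of the 6231 genes. Their medians were 0.089 and 0.0065.

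Among members at 100 CPM or more, the highest and the lowest ratios in all cells were those of 4 members. Both of the lowest ratios were smaller in size than that of Uqcrq (0.35), which is not among the 4. Ndufv3, an accessory subunit of the NADH-oxidising module of complex I, was at 142 CPM in Ctrl and 183 in RES, a log2 ratio of 0.36 (0.30 to 0.43). Ndufc1, a small accessory subunit, was at 144 and 184, a log2 ratio of 0.35 (0.29 to 0.42). On the other side, Cox7a2l, also known as SCAF1, was at 412 and 370.0, a log2 ratio of -0.15 (-0.20 to -0.11). Uqcrh was at 778 and 704, a log2 ratio of -0.14 (-0.17 to -0.11). The sign of the Cox7a2l ratio in all cells was not the same when each cell was thinned to 1000 UMIs (0.025).

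**Figure D1:**
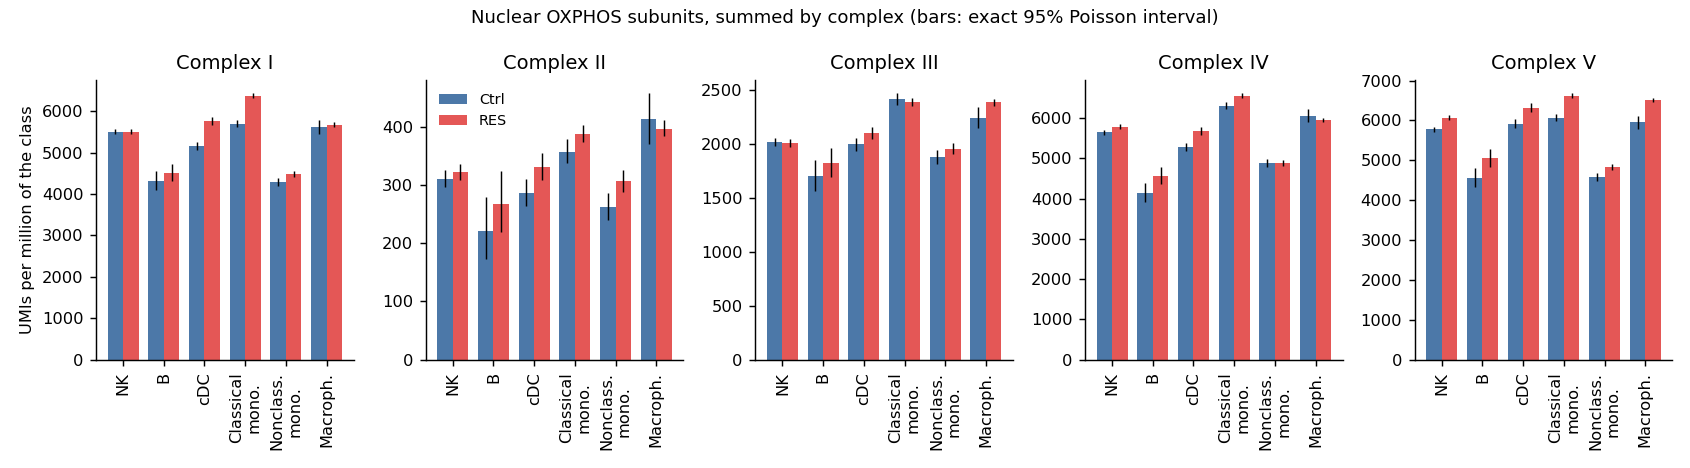
Summed level of the members of each complex in CPM, by cell class, in the Ctrl and RES libraries, with 95% counting intervals (1 library per group). Complexes I, IV and V stand well above III and II in every class, and nonclassical monocytes and B cells are the low classes in both libraries.

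The classes kept nearly the same order in both libraries. In Ctrl the members together stood at 20850.0 CPM in classical monocytes, 20279 in macrophages, 19255 in NK cells, 18649 in cDC, 15888 in nonclassical monocytes and 14958 in B cells. In RES the levels were 22337, 20923, 19683, 20189, 16470.2 and 16232 in the same order of classes, so that cDC lay above NK cells. The RES values of nonclassical monocytes (16329 to 16612) and B cells (15842 to 16628) overlapped within their counting intervals, and each other neighbouring pair in either library did not.

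Set against Ctrl, each class was slightly higher in RES, by 0.032 (0.020 to 0.044) on the log2 scale in NK cells, 0.11 (0.095 to 0.13) in cDC, 0.099 (0.086 to 0.11) in classical monocytes, 0.052 (0.031 to 0.073) in nonclassical monocytes and 0.045 (0.023 to 0.068) in macrophages. The B cell value of 0.12 (0.064 to 0.17) rested on 1 RES cell of 31627 UMIs that carried cycling markers and a shared barcode and held 7.78% of the UMIs of its class. Without shared barcodes the B cell ratio was 0.0095. The macrophage ratio was -0.035 when the median gene was set to the same level in both libraries.

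NK cells had the flattest members. Their median log2 ratio was 0.016 and 41 of 73 were above 0, beside a median of -0.026 and 44.5% above 0 over all genes. At 1.2-fold, 1 member (Sdhd, a membrane anchor of complex II, at 47.4 and 58.2 CPM) was higher, beside 7.03% of all genes, and 0 were lower, beside 9.29%. At 1.5-fold 0 were higher or lower, beside 0.74% and 0.808% of genes. Among members at 100 CPM or more, Cox7a2l had the highest ratio (0.21), followed by Ndufa3 (0.18), and Ndufb8 had the lowest (-0.19). Uqcrq, with 281 and 251 CPM, gave -0.16 (-0.27 to -0.062).

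In cDC the median was 0.14, with 62 of 73 above 0, beside 0.0070 and 50.9% over all genes. At least 1.2-fold higher were 14 members, beside 21.4% of all genes, and 0 were lower, beside 20.3%. None passed 1.5-fold (5.95% of genes higher and 5.88% lower). Ndufb3, an accessory subunit of the membrane arm of complex I, led with 126 CPM in Ctrl and 172 in RES (0.45, 0.22 to 0.68). Ndufa1, a small membrane-arm subunit needed to build complex I and encoded on the X chromosome, followed with 152 and 205 (0.43). Cox7a2l (451 and 401, -0.17) and Uqcrh (648 and 590.4, -0.13) were the lowest.

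Classical monocytes, the inflammatory Ly6C-high monocytes that enter injured tissue, had a median of 0.11 with 60 of 73 above 0. Over all genes the median was 0.017 and 52.6% were above 0. At least 1.2-fold higher were 9 members, beside 17.7% of all genes, and 0 were lower, beside 13.6%. None passed 1.5-fold (3.59% of genes higher and 3.99% lower). Complex I was at 5699 CPM in Ctrl and 6375 in RES, a log2 ratio of 0.16 (0.14 to 0.19), whereas complex III was at 2422 and 2389 (-0.019, -0.058 to 0.020). Ndufa1 was at 198 and 277 (0.49, 0.36 to 0.62) and Ndufb2, another accessory subunit, at 104 and 138 (0.41). Both of the lowest members belong to complex III: Uqcrh at 917 and 812 (-0.17, -0.24 to -0.11) and Uqcr10 at 265 and 237 (-0.16, -0.28 to -0.037).

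Nonclassical monocytes, which patrol vessels and carry little Ly6C, had a median of 0.067 with 50 of 73 above 0. Over all genes the median was 0.056, close to that of the members, and 58.2% were above 0. At least 1.2-fold higher were 12 members, beside 21.9% of all genes, and 0 were lower, beside 11.7%. At 1.5-fold, Sdhc alone was higher (32.6 and 50.02 CPM, 0.62, 0.18 to 1.07), beside 5.36% of genes, and 0 were lower, beside 2.37%. It rested on 61 and 158 UMIs. Atp5g3, one of 3 genes that encode the same mature c subunit of the ATP synthase ring, was at 132 and 181 (0.45, 0.24 to 0.67).

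Across NK cells, cDC, both monocyte classes and macrophages, Ndufa1 was the single member at least 1.2-fold higher in 4 of the 5 classes (1.37% of members, beside 2.02% of the 4355 genes at the level limit in all 5). It stood at 160 and 193 CPM in nonclassical monocytes and 181 and 252 in macrophages, and in NK cells at 221 and 249 (0.17). Atp5g3, Ndufv3 and Sdhd were that much higher in 3 of 5 (4.11%, beside 6.06%). In none of the 5 classes were 40 members that much higher (54.8%, beside 46.9%), and in 1 class 22 (30.1%, beside 30.9%). In cDC and both monocyte classes together, 40 members were above 0 in all (54.8%, beside 24.1% of 4923 genes) and 3 (Cox4i1, Cox7a2l and Uqcrh) were below 0 in all (4.11%, beside 18.3%).

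**Figure D2:**
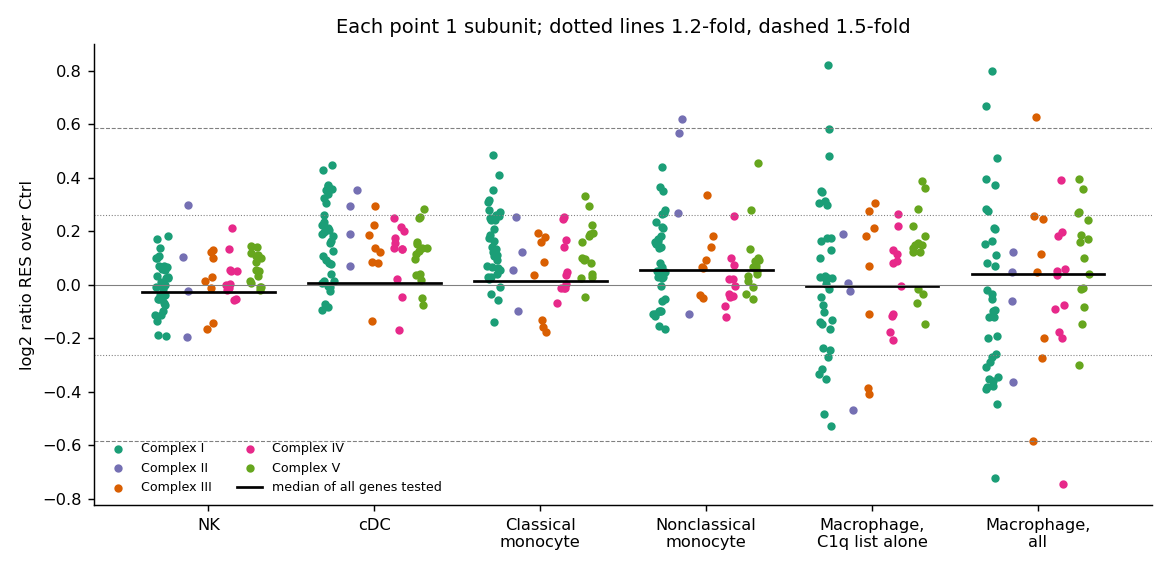
Log2 ratio of RES over Ctrl for each member (points) by class and complex, coloured by complex, with a black line at the median of all genes tested. Most points lie between -0.5 and 0.5, and among the columns drawn the whole macrophage class runs widest, from -0.75 to 0.80. B cells, which are not drawn, run from -0.56 to 1.17.

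Nonclassical monocytes were lower than classical monocytes in nearly every member, and this difference stood in both libraries. The summed level was 15888 against 20850.0 CPM in Ctrl, a log2 ratio of -0.39 (-0.41 to -0.37), and 16470.2 against 22337 in RES, -0.44 (-0.45 to -0.43). Every complex was lower, with -0.41 and -0.51 for complex I, -0.45 and -0.34 for II, -0.36 and -0.29 for III, -0.37 and -0.43 for IV and -0.40 and -0.45 for V in Ctrl and RES. Below 0 were 71 of 73 members in Ctrl and 70 in RES, and their medians were -0.41 and -0.50, where the medians over all genes were 0.091 and 0.13. At least 1.2-fold lower were 51 members in Ctrl (25.8% of all genes) and 57 in RES (25.9%), and 47 members were that much lower in both libraries, beside 18.9% of genes. At 1.5-fold the counts were 17 (13.1%), 25 (13%) and 10 in both (9.17%). At least 1.2-fold higher in nonclassical cells were 0 members in Ctrl (37% of all genes), 2 in RES (40.9%) and 0 in both (29.8%), and at 1.5-fold 0 in Ctrl (17.4%), 0 in RES (21%) and 0 in both (13.1%). Each class was sequenced to a different depth, with medians of 4752 and 7770 UMIs per cell in Ctrl and 4990 and 10459 in RES, and thinning every cell to 1000 UMIs left the RES ratio at -0.42. The gates that define the monocyte classes use none of these genes.

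The lower members came from every complex. Ndufs8 and Ndufs3, core subunits of complex I, had log2 ratios of -0.76 and -1.03, and -1.04 and -0.74, in Ctrl and RES. Ndufs8 was at 60.3 CPM in nonclassical against 102 in classical monocytes of Ctrl, and at 57.9 against 118 in RES. Sdhd had -1.03 and -0.59, Ndufc2 -0.87 and -0.75, Atp5g1 -0.72 and -0.82 and Cox8a -0.70 and -0.77. Cox8a was at 590.0 against 958 CPM in Ctrl and 559 against 950.0 in RES. Not all members followed. Cox5a, a matrix-side subunit of complex IV, was at 350 against 318 CPM in Ctrl and 355 against 319 in RES (0.14 and 0.15), and Cox7a2l was at 505 against 537 and 488 against 512 (-0.090 and -0.068). Sdha gave 0.019 and 0.39 and Ndufs1 -0.036 and 0.44.

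The mitochondrially encoded subunits did not share this difference. Their summed level was 27198 CPM in nonclassical against 25273 in classical monocytes of Ctrl (0.11, 0.090 to 0.12), and 27961 against 27052 in RES (0.048, 0.036 to 0.059). The number of mitochondrially encoded UMIs per nuclear-encoded UMI was 1.71 in nonclassical and 1.21 in classical monocytes of Ctrl, and 1.70 and 1.21 in RES.

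NK cells and cDC also stood below classical monocytes, by less. The sum in NK cells had a log2 ratio of -0.11 in Ctrl and -0.18 in RES against classical monocytes, and the sum in cDC -0.16 and -0.15. In cDC complex V was close to classical monocytes (-0.035 and -0.067) and complexes III (-0.28 and -0.18) and IV (-0.26 and -0.21) were further below. At least 1.2-fold lower in both libraries were 20 members in NK cells (28% of all genes) and 13 in cDC (27.4%), and at least that much higher were 4 in NK cells (42.6%) and 2 in cDC (16.7%). Ndufc2 (-0.89 and -0.84), Atp5c1, the gamma subunit that turns inside the ATP synthase (-0.76 and -0.79), and Uqcrfs1, the Rieske iron-sulfur protein of complex III (-0.84 and -0.68), were among the lower ones in NK cells. Ndufa12, an accessory subunit of complex I, was higher than in classical monocytes both in NK cells (0.57 and 0.35) and in cDC (0.55 and 0.63). Uqcrh was lower in cDC (-0.50 and -0.46).

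**Figure D3:**
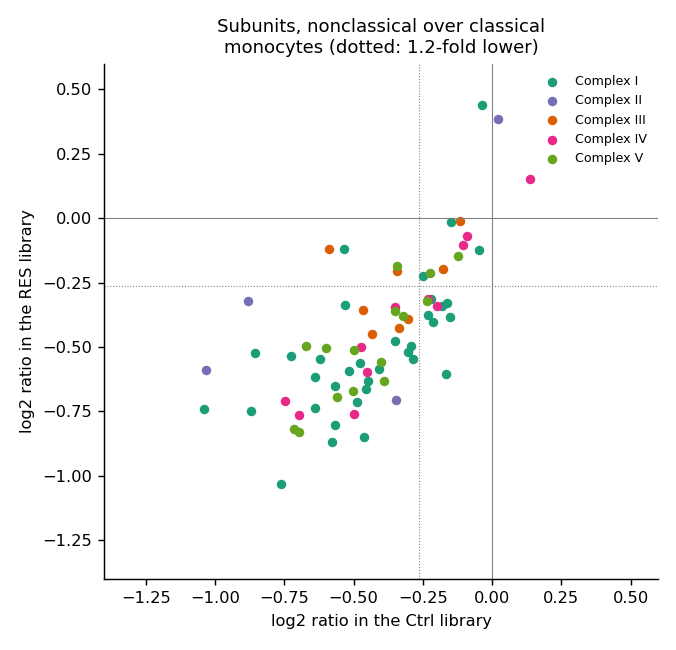
Log2 ratio of nonclassical over classical monocytes for each member, in Ctrl (horizontal axis) and RES (vertical axis), coloured by complex. All but a few members lie to the lower left of the zero lines, with medians of -0.41 and -0.50.

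In macrophages single members ran from a log2 ratio of -0.75 to 0.80 between the libraries, the widest range among the classes other than B cells (-0.56 to 1.17). Their median log2 ratio was 0.036, with 37 of 73 above 0, against 0.042 and 53.2% over all genes. At least 1.2-fold higher in RES were 13 members, beside 34.2% of all genes, and at least 1.2-fold lower were 16, beside 29.4%. At 1.5-fold, 3 were higher (Ndufb2, Uqcrq and Ndufv3), beside 17.1%, and 2 were lower (Ndufa9 and Cox7a2l), beside 16.3%. These shares are below those of genes in general. With every cell thinned to 1000 UMIs, which leaves out 20 Ctrl cells and 1 RES cell, 28 members were 1.2-fold higher (35.8% of all genes thinned alike) and 16 were 1.5-fold higher (25.5%), while 14 were 1.2-fold lower (42.9%) and 1 was 1.5-fold lower (31.8%). The share of members 1.2-fold higher, 38.4%, was then above that of genes, and the summed log2 ratio was 0.14. Within the C1q-alone cells, 90 in Ctrl and 84 in RES, 14 were at least 1.2-fold higher (28.8%), 9 lower (31.5%), 1 was 1.5-fold higher (Ndufb2, 12.5%) and 0 were 1.5-fold lower (15%).

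The promoters of Cox7a2l, the member with the lowest macrophage ratio, and of Ndufv3 and Ndufb2, those with the highest ratios, were chosen after their values were seen and are printed from RefSeq (GRCm38.p6), each as the 150 bases upstream of its RefSeq start, 5′ to 3′ on the gene's strand. Cox7a2 and Cox7a1, the ubiquitous and the heart and muscle relative of Cox7a2l, stand beside it for comparison. Capitals mark the GC box GGGCGGG or its reverse complement CCCGCCC, the site of SP factors. Some windows overlap annotated untranslated bases, which are not marked: 25 of Cox7a2 and 27 of Cox7a1 in their own windows, and 16 of Wdr4 in that of Ndufv3. Cox7a2l lies at chr17:83514334-83514483 on the minus strand, Cox7a2 at chr9:79759854-79760003 (minus), Cox7a1 at chr7:30184021-30184170 (plus), Ndufv3 at chr17:31519965-31520114 (plus) and Ndufb2 at chr6:39592415-39592564 (plus).
Cox7a2l: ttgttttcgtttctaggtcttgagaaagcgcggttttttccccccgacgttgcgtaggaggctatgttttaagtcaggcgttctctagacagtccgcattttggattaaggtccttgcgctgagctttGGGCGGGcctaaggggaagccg
Cox7a2: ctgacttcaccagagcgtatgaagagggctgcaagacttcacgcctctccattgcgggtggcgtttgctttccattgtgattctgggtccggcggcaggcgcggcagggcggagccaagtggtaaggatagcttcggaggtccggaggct
Cox7a1: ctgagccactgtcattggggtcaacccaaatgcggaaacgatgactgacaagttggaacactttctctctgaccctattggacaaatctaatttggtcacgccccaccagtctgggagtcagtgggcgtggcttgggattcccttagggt
Ndufv3: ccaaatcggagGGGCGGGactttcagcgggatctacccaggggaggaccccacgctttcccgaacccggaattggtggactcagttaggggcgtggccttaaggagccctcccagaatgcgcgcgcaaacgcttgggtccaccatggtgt
Ndufb2: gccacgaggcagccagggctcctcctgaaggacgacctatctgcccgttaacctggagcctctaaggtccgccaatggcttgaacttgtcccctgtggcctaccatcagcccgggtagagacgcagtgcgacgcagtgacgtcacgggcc

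Cox7a2l had 1 GC box, 22 to 16 bases upstream of the start, and Ndufv3 had 1 at 139 to 133 bases upstream. None of the other printed windows held the letters of that motif or of the others searched. Those were GCGCATGC (the NRF1 core), CCGGAAGT (bound by ETS factors such as GABPA) and AAGATGGC (YY1), each read on both strands. Of the 73 members 61 had a window in RefSeq. GCGCATGC was in 6 of the 61 (9.84%), against 2.10% of 27025 genes: Atp5g2, Atp5k, Ndufa11, Ndufa6, Ndufa8 and Sdhb. CCGGAAGT was in 3 (4.92% against 2.72%), AAGATGGC in 1 (1.64% against 1.02%) and GGGCGGG in 16 (26.2% against 22.5%). A match describes letters and not a bound site. In Atp5g2 the motif was read on both strands of overlapping bases.

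Cox7a2l spans chr17:83501918-83517330 of mm10 by the annotation used for positions, minus strand, and its RefSeq start lies inside this span. It was at 370 CPM in Ctrl macrophages and 220.4 in RES macrophages, a log2 ratio of -0.75 (-0.92 to -0.57), and -0.76 without shared barcodes. The macrophage gates differed in level. In C1q-alone cells it was at 395 and 343 (-0.20, -0.44 to 0.034) and in Arg1 Spp1 cells at 223 and 206 (-0.12, -0.66 to 0.48), 225 and 203 without shared barcodes. The Arg1 Spp1 cells were lower than the C1q-alone cells by a log2 ratio of -0.82 in Ctrl and -0.74 in RES, and of -0.81 and -0.75 without shared barcodes. Against this, 1 of 73 members was at least 1.5-fold lower in Arg1 Spp1 than in C1q-alone cells of RES, beside 9.66% of genes, and it was Cox7a2l. At 1.2-fold, 9 were lower (23.8%) and 4 were higher (30.5%), among them Ndufv3 and Uqcrq, and at 1.5-fold 0 were higher (12.3%). Cox7a2l stood at 290 and 336 in NK cells (0.21, 0.12 to 0.31), 537 and 512 in classical monocytes and 505 and 488 in nonclassical monocytes, so that the Arg1 Spp1 cells held the lowest level of the gene. Cox7a2, a relative in complex IV, was at 463 and 379.6 in the same cells (476 and 383 without shared barcodes) and at 386 and 356 in the C1q-alone cells.

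Ndufv3 went the other way. It was at 146 CPM in Ctrl macrophages and 254 in RES macrophages, 0.80 (0.54 to 1.07). In C1q-alone cells it was at 125 and 187 (0.58, 0.20 to 0.97), and in Arg1 Spp1 cells at 271 and 262 (-0.048, -0.54 to 0.49), 251 and 266 (0.084) without shared barcodes. The Arg1 Spp1 cells were higher than C1q-alone cells by 1.12 in Ctrl and 0.49 in RES on the log2 scale, and by 1.01 and 0.51 without shared barcodes. Classical monocytes held 128 and 151 and NK cells 180 and 183. Ndufb2 was at 97.1 and 154 in macrophages (0.67, 0.35 to 1.01), 95.9 and 170 in C1q-alone cells (0.82, 0.40 to 1.25) and 104 and 153 in Arg1 Spp1 cells (112 and 154 without shared barcodes). Its exons overlap Gm42420 on the same strand and Braf and Gm16272 on the other, so its counts are less certain. Uqcrq was at 354 and 547 in macrophages (0.63, 0.46 to 0.80), 345 and 418 in C1q-alone cells (0.27) and 407 and 563 in Arg1 Spp1 cells (0.47, 0.070 to 0.90), or 415 and 569 (0.45) without shared barcodes. Ndufa9 was at 72.5 and 44.0 (-0.72, -1.11 to -0.31) from 62 and 360 UMIs, and gave 0.63 when cells were thinned to 1000 UMIs. Uqcrc2, a core protein of complex III, was at 105 and 70.3 (-0.58), and gave 0.43 in thinned cells. The thinned values of Ndufa9 and Uqcrc2 rest on 97 Ctrl cells of 1000 UMIs each and are given without an interval.

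Within RES, the Arg1 Spp1 macrophages were also set against the classical monocytes of the same library. The sum gave -0.097 (-0.11 to -0.086), with complex I at -0.17 and complex III at 0.0074. At least 1.2-fold lower were 23 members (30.5% of all genes) and higher were 14 (35.7%). Cox7a2l had the lowest ratio (-1.32, with -1.23 as the upper end of its interval), followed by Ndufa6 (-0.93) and Atp5c1 (-0.93). Ndufv3 had the highest (0.79, 0.68 to 0.90), followed by Uqcrq (0.55) and Ndufc1 (0.50). In complex III the core and Rieske proteins were lower (-0.39, -0.48 to -0.31) and the small subunits were not (0.073, 0.040 to 0.11).

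Among the 7 nuclear-encoded core subunits of complex I, 6 were below 0 in macrophages, beside 46.8% of all genes. Their sum was 640 CPM in Ctrl and 523 in RES (-0.29, -0.42 to -0.16), and -0.18 (-0.37 to 0.0043) in C1q-alone cells. Ndufs7 was at 158 and 116 (-0.45), Ndufs8 at 110 and 84.6 (-0.38) and Ndufv2 at 117 and 91.2 (-0.36), while Ndufv1 was at 37.4 and 43.3 (0.21). The 35 complex I members together were at 5614 and 5676 CPM in these macrophages. The mitochondrially encoded subunits are not among them and are counted separately below.

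**Figure D4:**
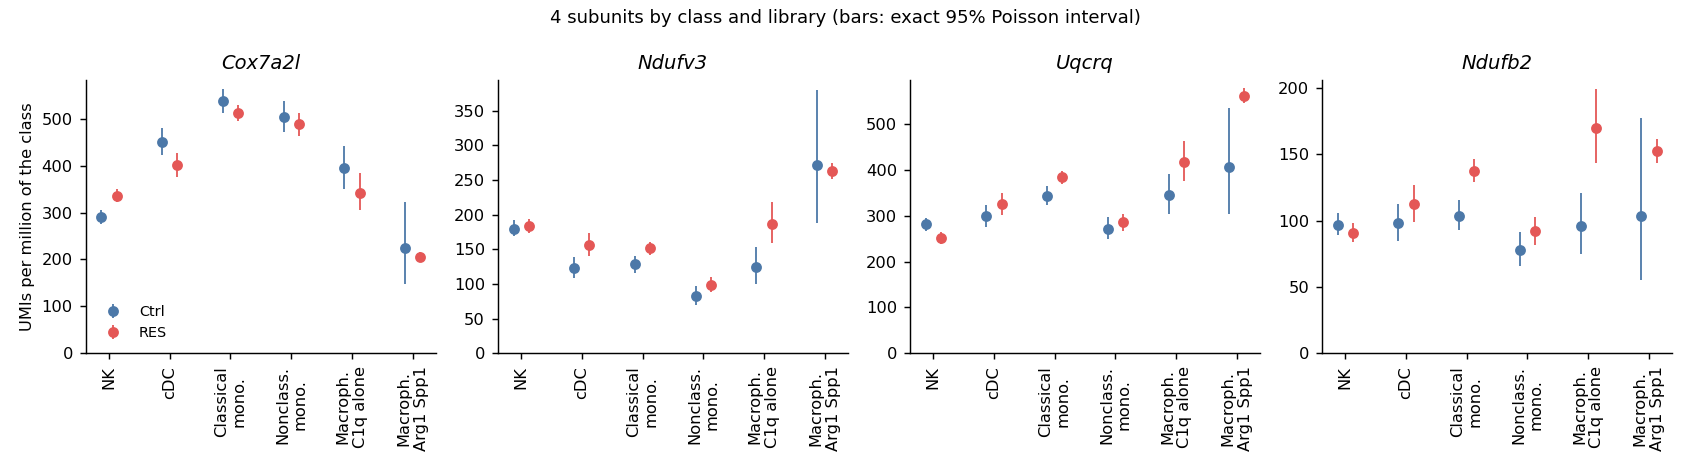
Levels of Cox7a2l, Ndufv3, Uqcrq and Ndufb2 in CPM by class, in Ctrl and RES, with 95% counting intervals. Cox7a2l is lowest in the Arg1 Spp1 macrophages (223 and 206), and Ndufv3 is highest there (271 and 262).

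Tissue isoforms were rare. Cox6a2, the heart and muscle form of Cox6a, was at 816 CPM in the 23 cells of the Ctrl plasmacytoid dendritic gate (144 UMIs) and at 1622 in the 10 cells of the RES gate (153 UMIs). Siglech, a defining marker of plasmacytoid dendritic cells, was at 2357 CPM in the Ctrl gate. Elsewhere Cox6a2 did not exceed 7.47 CPM, the level of RES NK cells. Its UMIs were in 12 of 23 Ctrl and 7 of 10 RES cells of the gate, and in 7 of 23 (30.4%, 13.2% to 52.9%) and 6 of 10 after thinning. Cox6a1, the ubiquitous form, was at 181 and 233 in the gate.

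Cox7a1 was found mostly in the RES Arg1 Spp1 macrophages. It was at 21.1 CPM there (154 UMIs in 108 of 584 cells, 18.5%), at 3.42 in RES C1q-alone cells (3 UMIs) and at 1.09 in RES NK cells, where 6 of 1435 cells (0.418%) held a UMI. The median depths were 11755 and 4042 UMIs. After thinning, 12 of 584 Arg1 Spp1 cells (2.05%, 1.07% to 3.56%) and 1 of 1429 NK cells held one. Among thinned RES cDC 3 of 171 held one (1.75%, 0.363% to 5.04%), a share whose interval overlaps that of the Arg1 Spp1 cells. Unthinned, the RES cDC were at 4.70 CPM (11 UMIs). Of the thinned RES C1q-alone cells 0 of 83 held one (0% to 4.35%). Without shared barcodes the RES Arg1 Spp1 cells were at 20.7. Ctrl Arg1 Spp1 cells had 2 UMIs in 27 cells, and both were left without shared barcodes, which cannot set their level. Cox6b2, the testis form of Cox6b1, was at 23.0 and 19.2 in cDC, 16.8 and 18.1 in classical monocytes, 12.3 and 14.8 in C1q-alone macrophages and 1.89 and 2.49 in NK cells. The 3 genes of the c subunit differed in level, with Atp5g2 at 459 and 481, Atp5g1 at 222 and 248 and Atp5g3 at 188 and 230 in all cells.

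**Figure D5:**
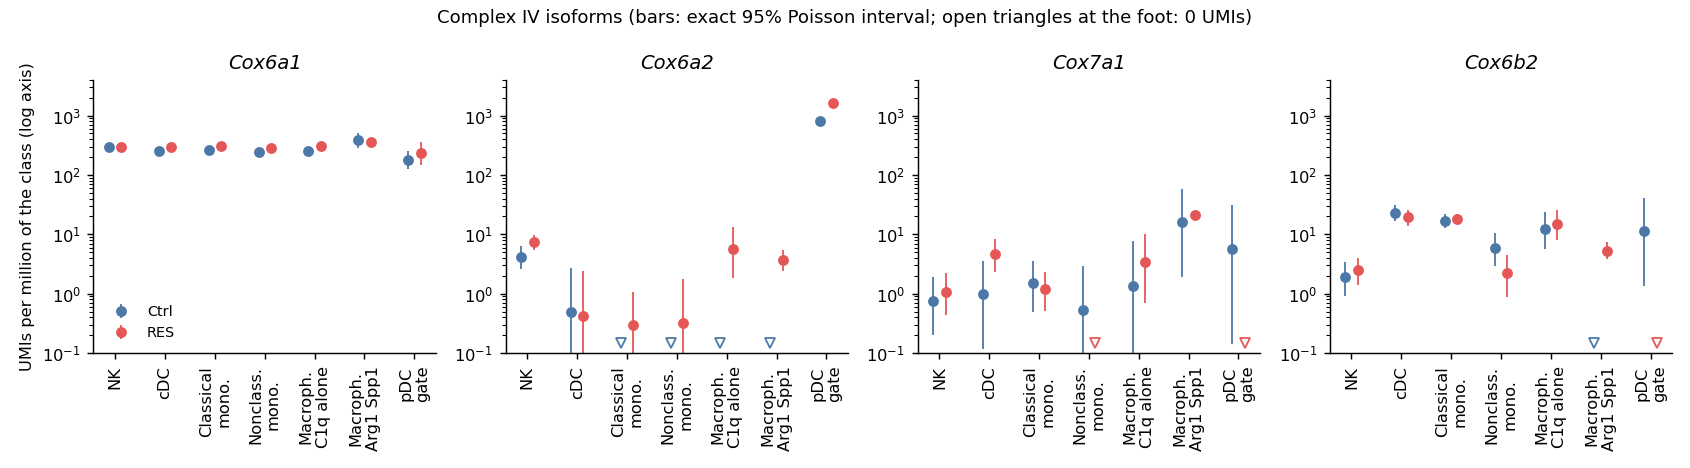
Levels of Cox6a1, Cox6a2, Cox7a1 and Cox6b2 in CPM by class, on a log axis, with 95% counting intervals and open triangles for 0 UMIs. Cox6a2 stands out in the plasmacytoid gate at 816 and 1622, and Cox7a1 in the RES Arg1 Spp1 macrophages at 21.1.

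The mitochondrially encoded subunits were counted beside the members. In all kept cells there were 1.35 (1.34 to 1.35) of their UMIs per nuclear-encoded UMI in Ctrl and 1.32 (1.32 to 1.33) in RES. The ratio was 1.29 and 1.31 in NK cells, 1.21 and 1.17 in cDC, 1.21 and 1.21 in classical monocytes, 1.18 and 1.25 in macrophages and 3.02 and 2.81 in B cells. B cells and nonclassical monocytes, the classes with the lowest nuclear-encoded level, had the highest ratios. The limit of 10% mitochondrial UMIs per cell bounds the ratio, and it was 1.46 and 1.36 in all cells with no limit.

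Genes that work with the complexes were counted from lists. In macrophages 6 of the 13 mitochondrially encoded genes were at least 1.2-fold higher in RES and 0 were lower, with mt-Atp8 at 49.1 and 82.7 CPM (0.75) and mt-Nd6 at 11.7 and 20.2 (0.79, -0.13 to 1.87, from 10 Ctrl UMIs), against -0.012 for mt-Nd1. Of 16 citric acid cycle enzymes tested, 6 were that much higher and 5 were lower, led by Idh3a (0.85) and by Idh3g, at 99.4 and 56.6 (-0.81). These are subunits of 1 enzyme, isocitrate dehydrogenase. Of 9 carriers and pores, 3 were higher and 3 lower, and Ucp2, an inner membrane carrier, was at 635 and 1118 (0.82) and Vdac1, the outer membrane channel, at 92.4 and 161 (0.80). Of 17 import genes, 6 were higher and 3 lower, with Hspa9, the import motor chaperone, at 74.9 and 146 (0.96). Of 17 tested assembly factors of complexes II to V, 4 were higher and 5 lower, with Cox17, a copper chaperone of complex IV, at 156 and 267 (0.78) and Ttc19 at -0.86. Of 3 tested complex I assembly factors 1 was lower (Ndufaf4, -0.75). Of 6 subunits outside the name pattern 1 was higher (Usmg5, 233 and 315). Of 6 regulators, 2 were higher, Esrra (0.87) and Gabpa (0.51). The macrophage background for these counts is the 34.2% and 29.4% given above.

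Cells with cycling markers, 50 in Ctrl and 31 in RES, stood at 23428 CPM against 19009 in the other Ctrl cells and at 23513 against 20160 in RES. In NK cells the 15 Ctrl cycling cells were at 23620 against 19123 and the 8 RES ones at 24277 against 19603. Cycling cells were also deeper, with medians of 10787 and 12326 UMIs in NK cells against 3229 and 4038, and the part of depth in this difference was not tested. The classes did not all go the same way. Cycling macrophages were lower than other macrophages, at 16580 against 20310 in Ctrl (1 cell) and 19789 against 20928 in RES (4 cells). So was 1 RES nonclassical monocyte, at 12628 against 16475. Cycling cDC and classical monocytes in both libraries and 1 RES B cell were higher. Leaving the cycling cells out changed the sum over all cells from a log2 ratio of 0.079 to 0.085.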

How the data were processed

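Both libraries were deposited as raw UMI counts per gene and barcode, made by the authors with Cell Ranger 3.1.0 per the file headers. The submitters' processing notes name bcl2fastq, Cell Ranger and mm10. The gene annotation used for counting is not given in the sources used here. Barcodes under 200 genes (31 in Ctrl and 13 in RES) or over 10% mitochondrial UMIs (244 and 119) were left out. Doublets were removed by Scrublet in scanpy 1.11.5 at 0.8% per 1000 deposited barcodes (109 and 146). Cells were classed by marker UMIs per 10000 with at least 3 marker UMIs. The gate thresholds, the minimum of 3 and the B cell exclusion were set after marker levels were seen. Counts were summed per class and library and given as CPM of that class. Ratios carry exact conditional binomial intervals, levels exact Poisson intervals and shares Clopper-Pearson intervals. With 1 library per group no test was made. Called means past 1.2-fold or 1.5-fold, for genes at 20 CPM in either library of the class. Named genes are the 3 highest members per complex, the 2 highest and 2 lowest by ratio per class at 100 CPM, all members 1.5-fold apart, the isoforms and 2 of each kind per pathway list. Others were chosen after their values were seen. The members and lists were chosen with earlier results of these data known. The counting code was tested on simulated counts. Python 3.11.15, numpy 2.4.6, scipy 1.17.1 and pandas 2.3.3 were used.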

Additional observations from a re-analysis of the deposited data

Results flagged for a closer look

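In 8 members the log2 ratio of RES over Ctrl had opposite signs in 2 of the 5 classes other than B cells, with counting intervals that both excluded 0 and a difference of at least 1.1-fold in each class. Without the minimum of 1.1-fold there were 12 such members, the others being Ndufa13, Ndufa2, Ndufb10 and Ndufb5, and macrophages were the lower side in 9. The difference between classes was not tested in any of them, since each class has 1 library per group. No share of all genes with such opposite signs stands beside these counts, so they do not set the members apart from genes in general. Among the 8 members, macrophages are the lower side in 6. Ndufs5 was at 0.17 in classical monocytes and -0.35 in macrophages, Ndufa6 at 0.26 in cDC and -0.27 in macrophages, Ndufv2 at 0.31 in cDC and -0.36 in macrophages, and Ndufs8 at 0.37 in cDC and -0.38 in macrophages. Atp5g2 was at 0.28 in nonclassical monocytes and -0.15 in macrophages, and Cox7a2l at 0.21 in NK cells and -0.75 in macrophages. Uqcrq was at 0.63 in macrophages and -0.16 in NK cells. Uqcr10 was at 0.29 in cDC and -0.16 in classical monocytes.

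Cox6a2 stood out in cells of the plasmacytoid dendritic gate, a class too small for the comparisons above, at 816 CPM in Ctrl and 1622 in RES, against at most 7.47 in any other class.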

How the results depend on the processing

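The comparisons are limited by their 2 libraries. The spread between mice cannot be measured because their cells were pooled. Single members in the Ctrl Arg1 Spp1 macrophages rest on few UMIs, and the B cell values on 1 deep RES cell. No paired analysis was possible because each group is 1 library. Of 456 values recomputed for the main results, 338 stayed within their counting interval or within 1.5 times of the count. Of 334 recomputed for named members, 307 did. The sum over all cells lay between 0.046 and 0.086, that of nonclassical over classical monocytes between -0.44 and -0.39 in Ctrl and between -0.52 and -0.42 in RES. The sign turned for the macrophage sum, the B cell sum and 3 members, and the cause was not tested. The shared barcodes, the class mix, the C1q list alone and the monocyte pair were chosen after seeing the data. The member counts below carry no share of all genes under the same setting, so they show only how a setting moves the count. Some of these shares, for thinned cells, equal weights, the class mix and the C1q list, are given with the results above.

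With ribosomal protein genes left out of the UMI total, the summed log2 ratio was 0.046 in all cells, 0.055 in B cells, 0.090 in cDC, 0.085 in classical monocytes and 0.010 in nonclassical monocytes. In all cells it was 0.048 for complex I, 0.038 for complex III, 0.015 for complex IV and 0.074 for complex V. Nonclassical over classical monocytes gave -0.44 in Ctrl and -0.52 in RES. Member counts were 7 in nonclassical monocytes at least 1.2-fold higher in RES. With the median ratio of genes at 100 CPM or more set to 0, the summed log2 ratio was 0.072 in all cells, 0.056 in NK cells, 0.040 in B cells, 0.083 in classical monocytes, 0.015 in nonclassical monocytes and -0.035 in macrophages. Member counts were 7 in nonclassical monocytes at least 1.2-fold higher in RES. With up to 20% mitochondrial UMIs per cell, the summed log2 ratio was 0.086 in all cells. Mitochondrial per nuclear-encoded UMI in Ctrl was 1.42 in all cells, 1.34 in NK cells, 1.33 in cDC, 1.26 in classical monocytes, 1.8 in nonclassical monocytes and 1.26 in macrophages. Mitochondrial per nuclear-encoded UMI in RES was 1.34 in all cells, 1.32 in NK cells, 1.19 in cDC, 1.72 in nonclassical monocytes and 1.27 in macrophages. Without doublet removal, the summed log2 ratio was 0.072 in all cells. With each cell weighted equally, the summed log2 ratio was 0.048 in NK cells, -0.041 in B cells, 0.029 in nonclassical monocytes and 0.099 in macrophages. In all cells it was 0.066 for complex I. Nonclassical over classical monocytes gave -0.47 in RES. Member counts were 5 in all cells and 22 in macrophages at least 1.2-fold higher, and 1 in nonclassical monocytes at least 1.2-fold lower, and 4 in macrophages at least 1.5-fold lower in RES. With each cell thinned to 1000 UMIs, the summed log2 ratio was 0.052 in all cells, 0.0056 in B cells, 0.043 in cDC, 0.069 in classical monocytes and 0.14 in macrophages. In all cells it was 0.056 for complex I, 0.064 for complex II, 0.031 for complex III, 0.031 for complex IV and 0.076 for complex V. Single members gave Cox7a2l 0.025 in all cells, Ndufa9 0.63 in macrophages and Uqcrc2 0.43 in macrophages. Nonclassical over classical monocytes gave -0.42 in RES. Member counts were 2 in all cells, 0 in NK cells and 28 in macrophages at least 1.2-fold higher, and 1 in NK cells, 10 in cDC, 8 in classical monocytes and 6 in nonclassical monocytes at least 1.2-fold lower, and 16 in macrophages at least 1.5-fold higher, and 1 in macrophages at least 1.5-fold lower in RES. With marker thresholds 2 times as high, the summed log2 ratio was 0.13 in classical monocytes and 0.091 in macrophages. Nonclassical over classical monocytes gave -0.44 in Ctrl and -0.52 in RES. Member counts were 1 in cDC and 3 in nonclassical monocytes at least 1.2-fold lower, and 17 in classical monocytes at least 1.2-fold higher in RES. Without cells that carry cycling markers, the summed log2 ratio was 0.085 in all cells and 0.0076 in B cells. Among members at 100 CPM or more, member counts were 0 in NK cells, 7 in cDC and 4 in nonclassical monocytes at least 1.2-fold higher, and 1 in macrophages at least 1.5-fold lower in RES. With no level limit beyond 1 UMI, member counts were 3 in all cells, 1 in NK cells, 1 in cDC, 4 in classical monocytes and 2 in nonclassical monocytes at least 1.2-fold lower, and 4 in NK cells at least 1.2-fold higher, and 8 in macrophages at least 1.5-fold higher in RES. Without shared barcodes, the summed log2 ratio was 0.0095 in B cells. With the class mix of RES set to that of Ctrl, the summed log2 ratio was 0.051 in all cells. In all cells it was 0.059 for complex I, 0.095 for complex II, 0.023 for complex III, 0.022 for complex IV and 0.079 for complex V. Member counts were 1 in all cells at least 1.2-fold higher in RES. With macrophages taken by the C1q list alone, the summed log2 ratio was 0.068 in macrophages. Member counts were 1 in macrophages at least 1.5-fold higher, and 0 in macrophages at least 1.5-fold lower, and 9 in macrophages at least 1.2-fold lower in RES. With at most 5% mitochondrial UMIs per cell, mitochondrial per nuclear-encoded UMI in Ctrl was 1.28 in all cells, 1.25 in NK cells, 2.37 in B cells, 1.16 in cDC, 1.18 in classical monocytes and 1.56 in nonclassical monocytes. Mitochondrial per nuclear-encoded UMI in RES was 1.28 in all cells, 1.28 in NK cells, 2.05 in B cells, 1.201 in classical monocytes, 1.63 in nonclassical monocytes and 1.21 in macrophages. With no mitochondrial limit, mitochondrial per nuclear-encoded UMI in Ctrl was 1.46 in all cells, 1.35 in NK cells, 1.35 in cDC, 1.29 in classical monocytes, 1.84 in nonclassical monocytes and 1.28 in macrophages. Mitochondrial per nuclear-encoded UMI in RES was 1.36 in all cells, 1.33 in NK cells, 1.202 in cDC, 1.23 in classical monocytes, 1.72 in nonclassical monocytes and 1.29 in macrophages.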
